A study of Mus musculus with 6 samples.

Results

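Liver X receptors (LXRs) are nuclear receptors that bind oxidized sterols and switch on genes for moving cholesterol out of the cell. The 9 genes described here are the receptors Nr1h2 and Nr1h3, their partner Rxra, and 6 LXR target genes: Abca1, Abcg1, Apoe, Pltp, Lpcat3 and Mylip. They were chosen by name, with earlier results of these data known. All 9 of them were found once each among the 54532 genes of the deposited count table. The RNA came from RAW264.7, a macrophage line of mouse whose genotype is labelled WT, and the cells were sorted by flow before extraction. One group of 3 libraries came from RAW264.7 cells alone and one of 3 from RAW264.7 cells kept for 48 h beside TTJ cells. The latter carry no functional Tsc2, a brake on mTORC1 signalling, and come from an angiomyolipoma of mice that model tuberous sclerosis complex. The series asks how such cells change macrophage polarization. Both groups are the same single cell line, and no label says that replicates A, B and C were separate cultures, so every p-value here sets a difference against the spread of the libraries alone, and that spread may be technical.

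In macrophages, LXRs pair with a retinoid X receptor on DNA. ABCA1 and ABCG1 then carry cholesterol across the plasma membrane to lipid-poor apolipoproteins and to high-density lipoprotein particles. Apolipoprotein E takes up exported lipid, PLTP transfers phospholipid between lipoproteins, LPCAT3 puts polyunsaturated chains into membrane phospholipids, and MYLIP (also called IDOL) is a ubiquitin ligase that marks lipoprotein receptors for degradation. LXRs also induce Srebf1 and fatty acid synthesis genes, while the sterol-sensing factor SREBP2 drives cholesterol synthesis and uptake when sterols are scarce.

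The 9 genes moved in both directions. The receptor gene Nr1h3, its partner Rxra and the target Pltp were higher in coculture, by 1.48-, 1.53- and 1.49-fold. The targets Abca1, Apoe and Abcg1 were lower, by 1.62-, 1.54- and 1.26-fold. Pltp was thus the only LXR target among the 9 that was called higher. Nr1h2, Lpcat3 and Mylip did not pass the test. So 6 of the 9 genes were called, against 36.9% of all 12972 genes tested, with 3 higher, against 21.7%, and 3 lower, against 15.2%. As the 9 were chosen with earlier results known, these shares are description only. The median log2 change of the 9 was 0.06, beside 0.0029 over all genes tested. Calls are edgeR quasi-likelihood tests with a Benjamini-Hochberg adjusted p under 0.05 over all genes tested. CPM values are counts relative to library sizes that were scaled by the trimmed mean of M-values (TMM), and errors are SD with n = 3. All 9 genes had at least 77 counts in every lone library, so none passed the filter on low counts through coculture alone.

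Total counts ran from 14329487 to 17358280 per library. The 10 macrophage markers together held 11584.6 to 11705.8 CPM alone and 12338.1 to 12675.6 CPM in coculture. Lyz2 dominates that sum, at 6767.6 ± 51.4 CPM alone and 7265.6 ± 100.1 CPM in coculture. Of the 10 markers, 6 were called higher and 2 (Spi1 and Cd68) lower, beside 21.7% and 15.2% of all genes tested. Of the 15 renal and simple epithelial markers, 11 were tested, all through their counts in coculture, and all 11 were higher. That list summed to 0.0688 to 0.120 CPM alone and 404.5 to 467.5 CPM in coculture, and Epcam and Lhx1 were at 0 in all libraries. The 16 mesenchymal and smooth muscle markers summed to 1.84 to 2.06 CPM alone and 85.3 to 96.9 CPM in coculture, with Col3a1, Pdgfra, Thy1 and Myl9 at 0. Of these 16, 7 were tested and 6 were called higher, while Acta2 was not called (adjusted p = 0.268). Tagln (14 counts alone, 10 in coculture) and Pdgfrb (27 and 23) were too low to test. Adipoq, Lep, Cfd and Cidec, of 7 adipocyte markers, were at 0 in every library; the list's sum was 33.8 to 39.0 CPM alone and 27.2 to 30.3 CPM in coculture, nearly all of it Fabp4 and Lipe, which macrophages also express. The 4 hepatocyte markers reached at most 0.0588 CPM. Genes with 0 counts in all lone libraries and 10 or more over the cocultured libraries took 0.282% to 0.314% of the latter's counts. Genes with any lone count, such as Krt7 (1 count alone, 2694 in coculture), are left out of it. It therefore does not measure the share of TTJ RNA. The mitochondrial share was 1.55% to 1.75% alone and 1.34% to 1.41% in coculture. What part RNA of TTJ cells had in any rise below was not tested. In these bulk samples, fewer cells expressing a gene and less RNA of it per cell cannot be told apart.

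DNA upstream of the start sites is shown for 3 genes whose levels changed: Abca1 and Apoe, which were lower, and Pltp, which was higher. LXR and RXR dimers prefer a DR4 element, 2 copies of a hexamer spaced by 4 bases. A strict form (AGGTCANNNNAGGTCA) and a relaxed form (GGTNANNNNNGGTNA) that leaves the more variable positions open were searched on both strands. The relaxed form was written with known LXR elements in mind, including that of Abca1. Windows from RefSeq, build GRCm38.p6, ran from 250 bases before to 50 bases after each start site, and 8 of the 9 genes matched, with 12 windows. Abcg1 was not among them. The relaxed form was found in 1 of these 12 windows, that of Abca1, and in 0.718% of all 32851 windows. The strict form was found in 0 of the 12 and in 0.0152% of all windows. In Abca1 the match lies 67 to 53 bases before the start, on the reverse strand relative to the gene, and stands in capitals. The single hexamer AGGTCA, which is also either arm of the strict form, was found in 1 of the 12 windows, an Rxra window with 2 copies, and in 16.3% of all windows. A match describes letters and is no evidence of binding, and a window without one says nothing about LXR. The upstream 250 bases read 5′ to 3′ along each gene, all on the minus strand, at chr4:53159896-53160145 for Abca1, chr7:19699189-19699438 for the outermost of the 3 annotated Apoe starts and chr2:164857709-164857958 for Pltp.
Abca1: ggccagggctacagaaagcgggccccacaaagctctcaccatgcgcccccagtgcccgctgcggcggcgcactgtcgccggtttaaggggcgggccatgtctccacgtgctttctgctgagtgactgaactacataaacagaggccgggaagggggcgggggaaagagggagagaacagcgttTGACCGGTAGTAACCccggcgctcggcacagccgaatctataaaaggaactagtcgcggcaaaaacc
Apoe: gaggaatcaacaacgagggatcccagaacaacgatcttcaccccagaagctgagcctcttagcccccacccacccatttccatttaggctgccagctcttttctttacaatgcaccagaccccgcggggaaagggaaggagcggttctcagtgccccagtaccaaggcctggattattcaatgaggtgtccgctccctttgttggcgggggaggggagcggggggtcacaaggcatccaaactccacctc
Pltp: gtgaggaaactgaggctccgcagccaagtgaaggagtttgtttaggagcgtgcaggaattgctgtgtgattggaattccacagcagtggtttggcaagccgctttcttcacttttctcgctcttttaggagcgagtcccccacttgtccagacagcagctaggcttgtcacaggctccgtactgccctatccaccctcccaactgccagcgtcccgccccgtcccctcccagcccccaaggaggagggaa

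Of the receptors, Nr1h3, which encodes LXR alpha (ENSMUSG00000002108, mm10 chromosome 2, 91184061 to 91202834), had 5.30, 7.37 and 6.63 CPM alone and 10.4, 9.76 and 8.52 CPM in coculture. The groups did not overlap. Its fold change was 1.48 (log2 0.56, SE 0.154, adjusted p = 0.00519), resting on 77 to 123 counts per library alone and 145 to 153 in coculture, the lowest counts among the genes that rose. Nr1h3 shares 6873 bases of its span with Gm13783 on the same strand, which had 1 count alone and 5 in coculture. What part reads of that stretch had in the rise was not tested. Nr1h2, which encodes LXR beta (ENSMUSG00000060601, chromosome 7, 44549616 to 44553951), had 62.3, 67.1 and 59.1 CPM alone and 63.9, 60.6 and 72.2 CPM in coculture. Coculture replicate C was the highest library and the other cocultured libraries lay within the range of the lone ones (log2 0.06, SE 0.0676, adjusted p = 0.510). Without coculture replicate C the log2 change of Nr1h2 was -0.0084. LXR beta is the widely expressed form, and its transcript was also the more abundant of the pair here. On the deposited FPKM scale, which divides by gene length, Nr1h2 stood at 18.7 ± 1.17 alone and Nr1h3 at 2.55 ± 0.415. The ratio of Nr1h3 to Nr1h2 within a library was 0.113, 0.147 and 0.149 alone and 0.218, 0.215 and 0.157 in coculture. The ratio was higher in all 3 cocultured libraries than in any lone one (exact two-sided permutation p = 0.10, the smallest that 3 against 3 allows), with coculture replicate C just above the lone range.

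Rxra, the retinoid X receptor that LXRs and other nuclear receptors dimerize with (ENSMUSG00000015846, chromosome 2, 27676440 to 27762957), had 17.6, 14.9 and 15.1 CPM alone and 27.6, 24.4 and 21.2 CPM in coculture. Every cocultured library was above every lone one, although the cocultured values spread more (24.4 ± 3.22 against 15.9 ± 1.5). The rise was 1.53-fold (log2 0.62, SE 0.109, adjusted p = 5.37e-05), the largest estimated rise among the 9 genes. That rank is not resolved: without coculture replicate A, Rxra was at log2 0.52 and Pltp at 0.63. Rxrb, a second retinoid X receptor, was the more abundant per length in lone cells (23.9 ± 1.87 against 2.90 ± 0.276 FPKM) and went the other way, from 88.7 ± 6.99 to 72.0 ± 1.21 CPM (1.23-fold lower, adjusted p = 0.000195). Rxrg, the form of muscle and brain, had no count in any library.

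**Figure D1:**
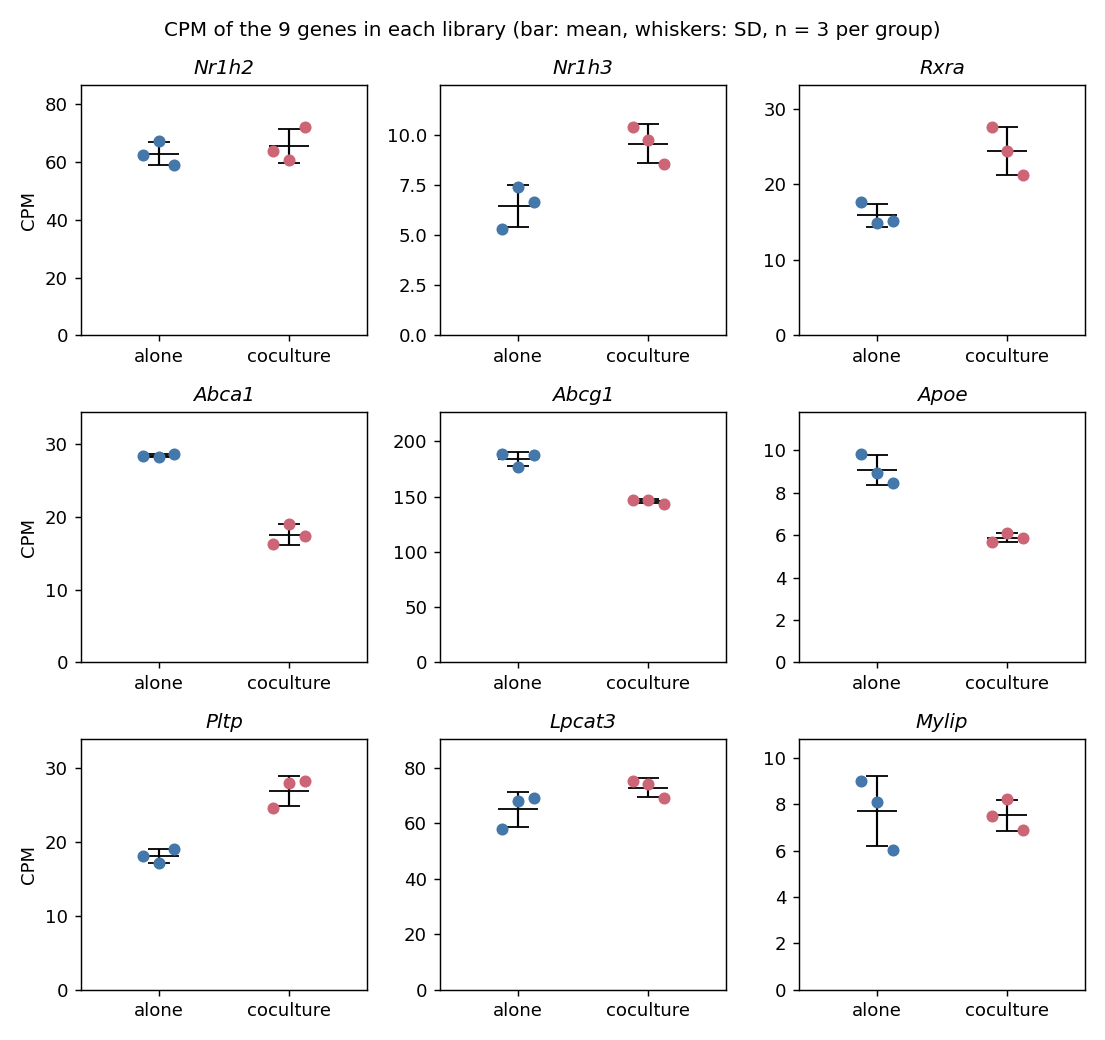
CPM (linear axis from 0) of each of the 9 genes in the 3 libraries of RAW264.7 cells alone (blue) and the 3 after 48 h of coculture with TTJ cells (red), with bars for means and whiskers for SD. Nr1h3, Rxra and Pltp lie higher and Abca1, Abcg1 and Apoe lower in every cocultured library, while Nr1h2 and Mylip overlap and Lpcat3 is separated only narrowly.

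Of the efflux transporters, Abca1 (ENSMUSG00000015243, chromosome 4, 53030787 to 53159895) had 28.3, 28.2 and 28.6 CPM alone and 16.2, 19.0 and 17.4 CPM in coculture. The lone libraries were nearly identical and all 3 cocultured libraries lay far below them. The fall was 1.62-fold (log2 -0.69, SE 0.0907, adjusted p = 8.14e-07), and 1.71% of all genes tested had a lower log2 change. The sequence printed for Abca1 carries the relaxed DR4 match, in a pattern that was written with this element known. Abcg1 (ENSMUSG00000024030, chromosome 17, 31057698 to 31115777) had 189, 177 and 187 CPM alone and 147, 147 and 144 CPM in coculture. Its groups were also fully apart, by a smaller factor: 1.26-fold lower (log2 -0.34, SE 0.0456, adjusted p = 1.37e-06). The ratio of Abcg1 to Abca1 in FPKM was 17, 16.0 and 16.7 alone and 23.1, 19.7 and 21.0 in coculture. The ratio thus moved toward Abcg1 in every cocultured library (exact two-sided permutation p = 0.10, the smallest possible for 3 against 3).

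Of the secreted lipid carriers, Apoe (ENSMUSG00000002985, chromosome 7, 19696109 to 19699188) had 9.84, 8.93 and 8.47 CPM alone and 5.67, 6.13 and 5.88 CPM in coculture. It fell 1.54-fold (log2 -0.62, SE 0.148, adjusted p = 0.00160) without overlap, on 143 to 149 counts per library alone and 81 to 100 in coculture. Apolipoprotein E is a major product of tissue macrophages. In these cells its transcript was among the less abundant of the 9 by count. Pltp (ENSMUSG00000017754, chromosome 2, 164839518 to 164857711) had 18.1, 17.1 and 19.0 CPM alone and 24.5, 27.9 and 28.2 CPM in coculture. All cocultured libraries lay above all lone ones (1.49-fold higher, log2 0.57, SE 0.0933, adjusted p = 1.92e-05). Pltp shares 1515 bases of its span with Ctsa, a lysosomal protease gene on the opposite strand, whose counts summed to 48810 alone and 37697 in coculture. Whether reads were counted by strand is not stated in the labels, so those of the shared stretch cannot be assigned to either gene with certainty, and their part in the rise of Pltp was not tested.

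Of the membrane and receptor-turnover targets, Lpcat3 (ENSMUSG00000004270, chromosome 6, 124663027 to 124704418) had 57.8, 68.1 and 69.0 CPM alone and 75.2, 74.2 and 69.1 CPM in coculture. The groups were only just apart, between alone replicate C and coculture replicate C, and the test gave log2 0.16 (SE 0.0654, adjusted p = 0.0555). The call turned on single libraries: the adjusted p was 0.0293 without alone replicate C, 0.0356 without coculture replicate C and 0.0498 without alone replicate B, but 0.283 without alone replicate A. Lpcat3 overlaps Emg1 on the opposite strand by 334 bases. Mylip (ENSMUSG00000038175, chromosome 13, 45389742 to 45412022) had 9.01, 8.09 and 6.05 CPM alone and 7.49, 8.23 and 6.88 CPM in coculture. Its cocultured libraries all lay inside the range of the lone ones (log2 -0.03, SE 0.162, adjusted p = 0.910). The sign of the Mylip value turned without alone replicate A (0.09), alone replicate B (0.0076) or coculture replicate C (0.04), and its SE leaves room for changes in either direction. By CPM, 7 of the 9 genes had groups that did not overlap, against 47.1% of all genes tested.

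**Figure D2:**
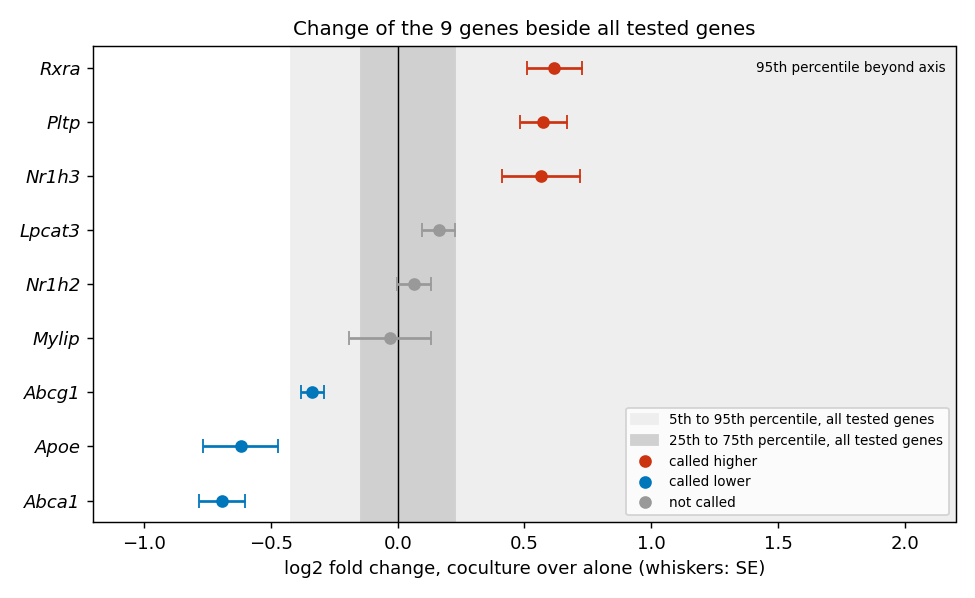
Log2 fold change of the 9 genes, coculture over alone, with SE as whiskers, in red where called higher, blue where called lower and grey where not called. Shaded bands give the middle of the distribution of all 12972 genes tested, from the 25th to the 75th percentile (-0.14 to 0.23) and from the 5th (-0.42) to the 95th percentile, which lies beyond the axis at 3.89; Abca1 and Apoe lie below the lower band edge.

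The levels of the 9 genes per length, in FPKM, spanned a wide range. In lone cells the order was Abcg1 (45.2 ± 1.62), Lpcat3 (19.8 ± 1.88), Nr1h2 (18.7 ± 1.17), Pltp (7.03 ± 0.359) and Apoe (4.24 ± 0.326). Then followed Rxra (2.90 ± 0.276), Abca1 (2.73 ± 0.0219), Nr1h3 (2.55 ± 0.415) and Mylip (2.38 ± 0.468). Lpcat3 and Nr1h2 overlapped between libraries, as did each neighbouring pair from Rxra down to Mylip, so that order is not resolved among the last 4. In coculture Abcg1 remained highest at 35.8 ± 0.517 FPKM, ahead of Lpcat3 at 22.3 ± 1.01, Nr1h2 at 19.5 ± 1.77 and Pltp at 10.5 ± 0.807. The lower ranks were Rxra at 4.46 ± 0.587, Nr1h3 at 3.80 ± 0.385, Apoe at 2.75 ± 0.110, Mylip at 2.33 ± 0.212 and Abca1 at 1.69 ± 0.136. Lpcat3 and Nr1h2 again overlapped, and so did Rxra and Nr1h3. Abca1 was the lowest of the 9 in all 3 cocultured libraries, below the lowest Mylip library (2.12 FPKM) at its own highest (1.84 FPKM). In lone cells the Abca1 range, 2.71 to 2.76 FPKM, had lain inside those of Nr1h3 and Mylip. The 9 genes together summed to 396.9 to 399.2 CPM alone and 373.0 to 378.4 CPM in coculture, a sum that Abcg1 dominates.

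**Figure D3:**
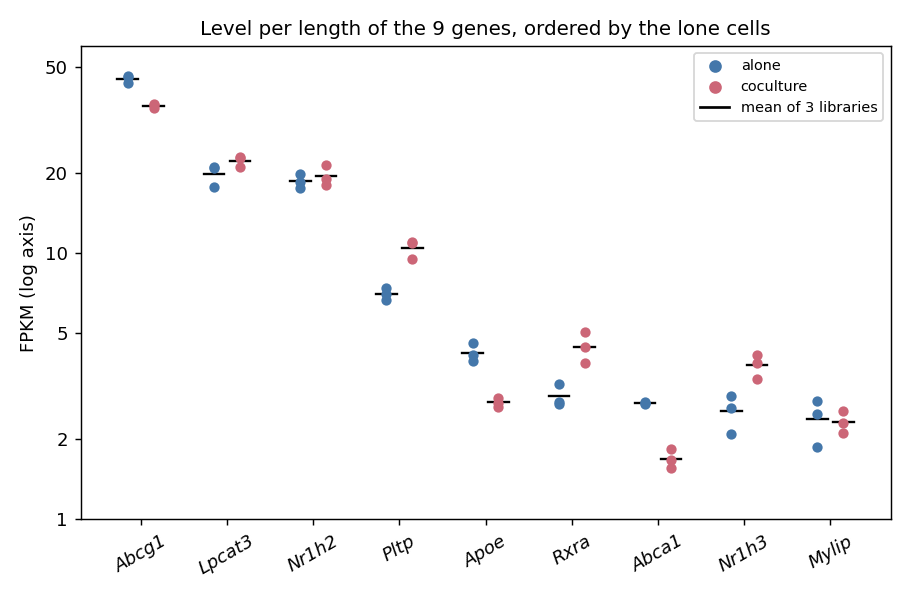
Deposited FPKM values (log axis) of the 9 genes in each library, alone (blue) and in coculture (red), ordered by the mean in lone cells, with black bars for group means. Abcg1 is the highest in both groups, and Abca1 moves from 2.73 FPKM alone to the lowest place, 1.69 FPKM, in coculture.

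Of 25 other known LXR targets, 15 were tested, with 6 higher and 5 lower and a median log2 change of 0.01. Of the 12 that reached 1 CPM in lone cells, 3 were higher and 5 lower; of the 11458 tested genes at that level 34.0% were called, 16.8% higher and 17.2% lower. Those lower were all lipid synthesis genes: Srebf1, the SREBP1 gene that LXRs induce, from 208.9 ± 7.44 to 180.6 ± 3.85 CPM (1.16-fold), Fasn, the fatty acid synthase (1.28-fold), Acaca, acetyl-CoA carboxylase (1.16-fold), and the desaturases Fads1 (1.35-fold) and Fads2 (1.49-fold). Fads2 had the largest fall, from 280.7 ± 7.63 to 188.3 ± 1.80 CPM (adjusted p = 3.22e-11). Scd1, the stearoyl-CoA desaturase, was higher, from 260.1 ± 2.33 to 330.6 ± 14.1 CPM (1.27-fold). So was Smpdl3a, a phosphodiesterase gene, from 16.6 ± 2.55 to 24.8 ± 2.60 CPM (1.49-fold). Tgm2, a transglutaminase used in clearing apoptotic cells, rose from 5.15 ± 1.49 to 44.7 ± 1.67 CPM (8.76-fold). Lpl, the lipoprotein lipase, did not pass the test, at 1335.4 ± 84.3 and 1379.1 ± 21.7 CPM (adjusted p = 0.385).

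The remaining rises on that list started from almost nothing. Arl4c, a small GTPase, went from 0.123 ± 0.116 to 12.4 ± 1.53 CPM, on 6 counts alone. Mertk, a receptor for apoptotic cells, had 0 counts alone and 53 in coculture, at least 18.3-fold higher with a floor of 3 counts over the lone group. Arl4c, Mertk and Cd5l, like Vdr, Sult2b1, Vldlr, Mboat2 and Cav1 below, passed the filter on low counts through the cocultured libraries, so they had to differ in that direction. Cd5l, a secreted macrophage protein, rose 2.81-fold to 1.13 ± 0.371 CPM, on 19 counts alone; this call was lost without coculture replicate A (adjusted p = 0.0693) and in the DESeq2 Wald test (adjusted p = 0.0670). When the fit was limited to genes with at least 1 CPM alone, 3 of the list were higher. Abcg5, the apolipoprotein genes Apoc1, Apoc2 and Apoc4, Ccr7 and Cyp7a1 had 0 counts in all libraries, and Mlxipl, Abcg8 and Abcg4 had at most 14 counts in a group. In the same cocultured libraries 11 of the 15 renal and simple epithelial markers were called higher, and 6 of the 16 mesenchymal and smooth muscle markers. Every other gene called higher rose in these libraries as well. The source of the Arl4c, Mertk and Tgm2 RNA was not tested.

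A list of the other RXRs and of receptors that pair with RXR held 12 genes, of which 8 were tested. Of these, 4 were higher and 2 lower, Rxrb included, beside 21.7% and 15.2% of all genes tested. Of the 6 that reached 1 CPM alone, 3 were higher and 2 lower, beside 16.8% and 17.2% of all tested genes at that level. Ppard, the PPAR delta gene, rose from 18.9 ± 1.13 to 33.1 ± 2.09 CPM (1.75-fold). Of the retinoic acid receptors, Rara rose from 22.4 ± 1.83 to 32.6 ± 5.51 CPM (1.46-fold) and Rarg from 12 ± 1.3 to 19.0 ± 1.47 CPM (1.59-fold), whereas Rarb fell from 11.6 ± 1.79 to 7.56 ± 0.587 CPM (1.53-fold lower). Vdr, the vitamin D receptor, had 4 counts alone and reached 2.95 ± 0.271 CPM. Ppara, Nr1h4 and Thrb had at most 6 counts in a group. The list median was 0.39.

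All 13 LXR co-regulators were tested, and edgeR called 0 higher and 5 lower, beside 21.7% and 15.2% of all genes tested, with a median of -0.10. At an unadjusted p under 0.05 also 0 were higher, as in the DESeq2 Wald test and limma-voom (0 each), whereas 1 was higher without alone replicate B. The corepressor complex members Ncor1 (1.12-fold, from 283.5 ± 6.80 to 252.0 ± 2.57 CPM) and Gps2 (1.26-fold, from 45.9 ± 2.35 to 36.5 ± 4.26 CPM) fell, as did the coactivator Ncoa3 (1.23-fold, from 255.1 ± 6.11 to 207.3 ± 6.44 CPM). Ep300, a histone acetyltransferase, and the coactivator Ncoa2 also passed, by 1.11- and 1.12-fold. These last calls were fragile. The adjusted p of Ep300 was 0.0558 when alone replicate A was left out and 0.0774 when coculture replicate B was. That of Ncoa2 lay between 0.0522 and 0.211 when alone replicate A or B or coculture replicate A or C was left out. The count of co-regulators lower was 3 without alone replicate A and 8 without alone replicate C.

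**Figure D4:**
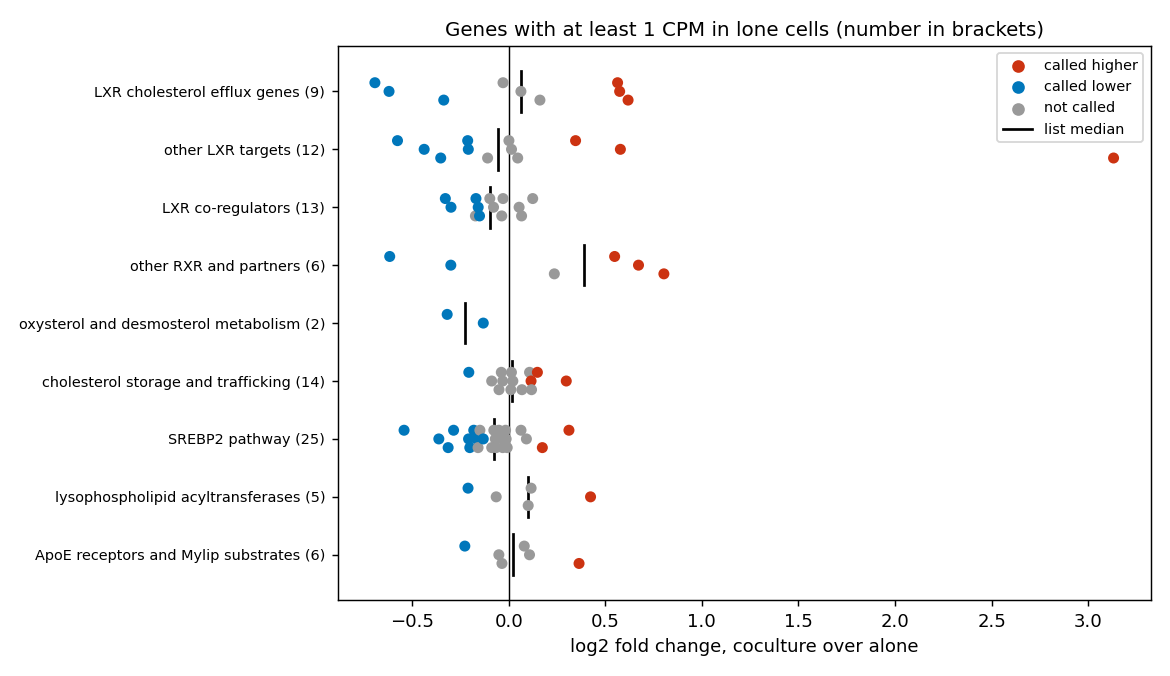
Log2 fold change, coculture over alone, of genes that reached 1 CPM in lone cells on each list (a point per gene, red called higher, blue called lower, grey not called, black bar the median, number of genes in brackets). Among the 9 LXR cholesterol efflux genes the called ones lie from -0.69 to -0.34 and from 0.56 to 0.62, while the called SREBP2 pathway genes reach from -0.54 (Mvd) to 0.31 (Insig2).

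The enzymes that make or modify LXR ligands were mostly too low to test, with 3 of 8 tested. Of these, 1 was higher and 2 lower (0 lower without coculture replicate B), beside 21.7% and 15.2% of all genes tested. The gene called higher, Sult2b1, passed the filter through coculture. Of the 2 that reached 1 CPM alone, 0 were higher and 2 lower, beside 16.8% and 17.2% of all tested genes at that level. Cyp27a1, which makes 27-hydroxycholesterol, fell from 22.9 ± 0.515 to 18.3 ± 2.14 CPM (1.25-fold, adjusted p = 0.0135), and the call was lost without coculture replicate B (0.0959). Sult2b1, a sterol sulfotransferase, had 3 counts alone and 77 in coculture. Their depth-scaled ratio was 26.5, with exact 95% bounds of 8.75 and 131.5 for counting error. Ch25h, the cholesterol 25-hydroxylase, had 0 counts alone and 10 in coculture. Cyp7b1 and Cyp11a1 had 0 counts, and Cyp46a1 and Hsd3b7 had at most 3 counts in a group.

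In the SREBP2 pathway all 26 genes were tested, 3 higher and 9 lower, with a median of -0.07. Among the 25 that reached 1 CPM alone, 2 were higher and 9 lower, beside 16.8% and 17.2% of all such genes. Srebf2 itself fell from 392.4 ± 11 to 339.7 ± 2.66 CPM (1.15-fold). The largest fall was of Mvd, a mevalonate pathway decarboxylase, from 65.6 ± 4.27 to 44.9 ± 3.55 CPM (1.46-fold). Nsdhl (1.29-fold), Acat2 (1.24-fold), Lss (1.22-fold) and Dhcr7 (1.15-fold) also fell, as did Hmgcs1 (1.13-fold). The call of Hmgcs1 was lost without alone replicate B (adjusted p = 0.177), coculture replicate A (0.0703) or coculture replicate B (0.0863). Insig2, which holds SREBPs back in the endoplasmic reticulum, rose 1.24-fold to 26.4 ± 1.19 CPM. The sterol isomerase gene Ebp rose 1.13-fold, and its adjusted p of 0.0352 was 0.0753 to 0.124 without alone replicate C or any one cocultured library.

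The receptors that MYLIP degrades or that bind apolipoprotein E gave 2 rises and 1 fall among 7 of 8 tested. Over all genes tested the shares were 21.7% higher and 15.2% lower. Of the 6 receptors that reached 1 CPM alone, 1 was higher and 1 lower, beside 16.8% and 17.2% of all tested genes at that level. Lrp8 rose from 77.5 ± 5.23 to 99.8 ± 3.48 CPM (1.29-fold), and Sorl1, a sorting receptor, fell from 126.6 ± 8.70 to 108.0 ± 8.56 CPM (1.17-fold), although its adjusted p was 0.0585 to 0.0637 on the FPKM scale. Vldlr went from 0 counts to 20.9 ± 1.94 CPM (a rise of at least 341-fold) in the cocultured libraries, all of which held epithelial markers. Lrp2 had 4 and 11 counts. Among the acyltransferases related to LPCAT3, all 6 were tested. Lpcat4 rose from 62.4 ± 2.0 to 83.7 ± 1.80 CPM (1.34-fold), Lpcat1 fell from 91.4 ± 4.39 to 79.0 ± 1.57 CPM (1.16-fold), and Mboat2 had 0 counts alone and 80 in coculture, a rise of at least 27.6-fold.

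Of 18 genes for storing and moving cholesterol inside the cell, 16 were tested. Of these, 4 were higher (2 without coculture replicate A) and 1 lower, beside 21.7% and 15.2% of all genes tested, with a median log2 change of 0.02. Of the 14 that reached 1 CPM alone, 3 were higher and 1 lower, beside 16.8% and 17.2% of all tested genes at that level. Npc2, which lifts cholesterol out of lysosomes, rose from 291.2 ± 4.77 to 357.9 ± 7.32 CPM (1.23-fold), and Lipa, the lysosomal acid lipase, from 596.6 ± 4.96 to 661.3 ± 32.7 CPM (1.11-fold; adjusted p = 0.00406, or 0.0516 without coculture replicate A). Abca7, a transporter related to ABCA1, fell from 96.3 ± 5.96 to 83.3 ± 4.55 CPM (1.15-fold lower). Plin2, the lipid droplet coat, was higher by 1.08-fold (adjusted p = 0.0474), a call lost without either alone replicate A (0.146) or B (0.0981) or coculture replicate A (0.128) or B (0.166), and with the replicate letter as a block (0.0526). Cav1, which is also a mesenchymal marker, had 1 count alone and 15.2 ± 0.566 CPM in coculture. Apoa1, the apolipoprotein that accepts cholesterol from ABCA1, had 0 counts in every library. Gramd1c had 15 counts alone and 32 in coculture and was not tested.

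The genes most like the 2 transporters were found by Pearson's r of log2 CPM over the 6 libraries, among 8880 genes with a mean of at least 10 CPM. Nearest to Abca1 were Plekho1 (r = 0.997), Btk (0.996) and Fam174a (0.996). Nearest to Abcg1 were Aldh3b1 (r = 0.998), Atf4 (0.997) and Mdc1 (0.997). These 6 libraries fall into 2 groups, so many genes that were lower in coculture score high: 970 genes had an r above 0.9 with Abca1 and 1029 with Abcg1. All 6 named genes were lower in coculture, Atf4 from 320.9 ± 9.17 to 235.6 ± 6.15 CPM.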

How the data were processed

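Poly-T selected RNA of 6 libraries was sequenced with paired reads, per the labels' protocols. Per the submitters' processing notes the build was mm10 and the tools were featureCounts 1.5.0-p3, HISAT2 2.0.5, edgeR 3.22.5 and DESeq2 1.20.0; no role is stated. The authors deposited raw counts per gene and FPKM values, per the file headers. Recomputed from counts, gene length and library total, FPKM matched up to a factor of 0.996 to 1.00 per library. Members and lists were chosen with earlier results of these data known.

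The test was edgeR 4.0.16 (R 4.3.3) with TMM, filterByExpr (12972 genes kept) and a group term. SE is the absolute log2 change over the square root of F. All members, and most list genes that passed and reached 1 CPM in either group, were named; Rxrg, Lpl and genes too low to test were added after their values were seen. Some listed genes are counted but not reported here by name. Every pair of replicates differed by more than sampling noise (chi-square per degree of freedom 2.98 to 4.57). The procedure was tested on simulated data. Alternatives were other scalings and filters, DESeq2 1.42.0, limma 3.58.1 on counts and on log2 FPKM, the replicate letter as a block, and leaving out each library.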

Additional observations from a re-analysis of the deposited data

How the results depend on the processing

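Abca1, Abcg1, Apoe, Nr1h3, Rxra and Pltp kept their direction and their call under all 17 alternatives. Their log2 changes ran from -0.76 to -0.47 for Abca1, -0.37 to -0.32 for Abcg1, -0.67 to -0.48 for Apoe, 0.44 to 0.67 for Nr1h3, 0.48 to 0.72 for Rxra and 0.51 to 0.63 for Pltp. The highest adjusted p among these was 0.0373, for Nr1h3. The ends nearest to 0 of Abca1, Apoe, Nr1h3, Rxra and Pltp came from log2(FPKM + 1), whose pseudocount shrinks changes of low genes. Lpcat3 passed with at least 1 CPM in at least 3 libraries (log2 0.17, adjusted p = 0.0487) and among genes with at least 1 CPM alone (0.18, adjusted p = 0.0426), and its log2 change ran from 0.0897 to 0.2055 when 1 library was left out; that made 4 genes higher in place of 3. With 1 library left out, Nr1h2 ran from -0.0084 to 0.11 and Mylip from -0.1829 to 0.0945. Scarb1, the HDL receptor, at log2 0.02, ran from -0.0043 (without alone replicate C) to 0.0349 when 1 library was left out. Over all genes, 2819 were higher and 1974 lower, and 1707 were higher in the FPKM fit limited to a mean FPKM of at least 1, which tests 10986 genes. Any pairing by replicate letter was weak: deviations of same-letter libraries correlated at 0.030, 0.057 and 0.087 across genes. Pairs of unlike letters lay between -0.063 and 0.010, so each library correlated best with its own letter. With the replicate block Abca1 was at -0.69 and Abcg1 at -0.34, and 2815 genes were higher and 1951 lower. For the called list genes of at least 1 CPM and a few that were not called, among them Lpl, Scarb1 and Soat1, 803 results over these alternatives kept direction and call, 56 lost the call, 8 (all of Soat1) gained it and 1 (Scarb1) reversed. Further list genes that were not called were not followed this way. Gramd1c, with 15 and 32 counts, shows the depth at which genes could no longer be tested.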
